A study of Mus musculus with 2 samples.

Results

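Chromatin loops spanning under 500 kb with no end of a protein-coding gene at either anchor were taken from the Hi-C map of replicate 2 of HPC5 cells. A loop is a pair of genomic bins, its anchors, that the authors' list reports as joined. The rule kept a loop when the midpoints of its anchors lay less than 500 kb apart and neither anchor held the first or last base of a protein-coding gene of the RefSeq table of GRCm38.p6. It kept 2300 of the 5729 loops of the replicate 2 list, which is 40.1% (95% Wilson interval 38.9 to 41.4%), and 44.9% of the 5120 loops under 500 kb. The other loops under 500 kb were 2016 with a gene end at 1 anchor and 804 with a gene end at both. The lists of both replicates together held 7005 loops. The loops were thus chosen by called anchor positions, which are a readout of the assay, so the absence of gene ends and the limit on span are given as descriptions.

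HPC5 is a mouse haematopoietic progenitor line derived from bone marrow. The series held 2 Hi-C samples of it, numbered replicates 1 and 2, both Etv6+/+ and neither with a treatment given in the labels. Fixation was with 2% formaldehyde for 10 min, per the labels' protocols, and the chromatin was processed with the Arima kit, which cuts chromatin with restriction enzymes and joins ends that lie together in the nucleus. The labels do not say whether the samples came from separate cultures, and no mutant or treated sample was analysed, so there is 1 group of 2 samples and no comparison of conditions. Hi-C lists hold no expression, so the identity of the line could not be checked against marker genes. The lists also give no read totals, and the depth behind each loop is unknown.

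Many chromatin loops form when the cohesin ring extrudes DNA until it meets the DNA-binding protein CTCF, and such loops often lie outside promoters. Others bring an enhancer to the gene it acts on. A gene can be held inside a loop without touching either anchor, and long genes can hold anchors in their introns. ETV6, a repressor of the ETS family whose members bind a GGAA core, is needed by blood stem and progenitor cells.

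No genome sequence was used here, so the sequences shown are RefSeq promoters of GRCm38.p6 and mature RefSeq miRNAs that lie in or under these loops. They were chosen after the loops were known. Each promoter runs from 250 bases before to 50 after an annotated start, 5′ to 3′ on the strand of the gene. The first set holds the 3 promoters in anchors of loops found in both replicates that carried a loosened CTCF core. The core searched was CCA, 2 bases of any kind, AG, 2 bases of any kind and GGC, on both strands, and it is in capitals. The lncRNA Gm13404 starts in the right anchor of a 150 kb loop (chr2:33973474-33973773, plus strand), Gm2921 in that of a 220 kb loop (chr8:57799618-57799917, plus strand) and Gm12320 in that of a 125 kb loop over the platelet gene Gp1ba (chr11:70755117-70755416, minus strand). The core of Gm13404 reads along the gene at bases 116 to 127, and those of Gm2921 (254 to 265) and Gm12320 (228 to 239) read on the opposite strand.
Gm13404: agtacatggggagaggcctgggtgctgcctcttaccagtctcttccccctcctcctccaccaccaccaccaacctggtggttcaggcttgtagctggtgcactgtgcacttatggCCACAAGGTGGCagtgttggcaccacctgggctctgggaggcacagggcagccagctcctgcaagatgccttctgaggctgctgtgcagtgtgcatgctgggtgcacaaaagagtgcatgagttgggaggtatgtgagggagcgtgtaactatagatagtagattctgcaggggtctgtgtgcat
Gm2921: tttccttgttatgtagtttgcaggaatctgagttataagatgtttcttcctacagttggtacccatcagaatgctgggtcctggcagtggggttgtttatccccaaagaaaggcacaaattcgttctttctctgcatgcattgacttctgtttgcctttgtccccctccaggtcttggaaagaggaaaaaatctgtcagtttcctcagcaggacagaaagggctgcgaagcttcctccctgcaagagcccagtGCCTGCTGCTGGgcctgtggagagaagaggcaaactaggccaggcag
Gm12320: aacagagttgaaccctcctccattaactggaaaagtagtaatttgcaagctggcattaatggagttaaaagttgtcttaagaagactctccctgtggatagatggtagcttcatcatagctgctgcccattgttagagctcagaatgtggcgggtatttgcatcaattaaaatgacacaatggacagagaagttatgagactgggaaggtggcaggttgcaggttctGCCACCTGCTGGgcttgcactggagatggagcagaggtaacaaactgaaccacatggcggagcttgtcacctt

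The second set shows what lies at anchors of loops over blood transcription factors. Gm33199 starts in the right anchor of the loop around Irf8 (chr8:120791351-120791650, plus strand) and Gm12216 in the right anchor of the loop around Irf1 (chr11:53859207-53859506, minus strand). Gm35484 (chr7:35029160-35029459) and Gm38988 (chr7:35172609-35172908), both on the minus strand, start in the left and the right anchor of the loop around Cebpa, the latter at a start inside the lncRNA gene, whose outer ends lie beyond that anchor. None of these 4 promoters held the CTCF core or the ETS core CCGGAAGT on either strand, which says only that these letters are not in these windows.
Gm33199: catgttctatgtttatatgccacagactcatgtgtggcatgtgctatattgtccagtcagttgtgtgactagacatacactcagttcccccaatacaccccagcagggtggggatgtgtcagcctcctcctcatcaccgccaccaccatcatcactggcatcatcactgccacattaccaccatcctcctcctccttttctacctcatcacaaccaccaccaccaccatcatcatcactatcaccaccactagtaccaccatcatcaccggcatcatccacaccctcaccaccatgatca
Gm12216: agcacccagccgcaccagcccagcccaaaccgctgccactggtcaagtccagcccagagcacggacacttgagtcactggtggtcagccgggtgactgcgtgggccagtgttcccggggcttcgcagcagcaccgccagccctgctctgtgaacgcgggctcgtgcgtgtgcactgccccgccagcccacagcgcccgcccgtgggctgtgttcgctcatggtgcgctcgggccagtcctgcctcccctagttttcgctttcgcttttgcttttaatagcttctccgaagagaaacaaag
Gm35484: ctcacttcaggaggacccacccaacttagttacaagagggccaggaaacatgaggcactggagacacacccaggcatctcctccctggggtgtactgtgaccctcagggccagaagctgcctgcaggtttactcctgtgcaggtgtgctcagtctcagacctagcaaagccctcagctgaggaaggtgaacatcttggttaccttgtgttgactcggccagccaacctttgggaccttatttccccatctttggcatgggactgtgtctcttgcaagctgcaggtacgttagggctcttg
Gm38988: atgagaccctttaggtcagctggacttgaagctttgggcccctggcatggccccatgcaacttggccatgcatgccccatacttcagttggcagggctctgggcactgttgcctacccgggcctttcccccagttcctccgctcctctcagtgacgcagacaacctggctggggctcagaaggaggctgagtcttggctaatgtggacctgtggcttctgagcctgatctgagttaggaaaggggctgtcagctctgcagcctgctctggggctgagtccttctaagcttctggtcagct

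Across all member anchors, 14 of the 420 lncRNA promoters (3.33%, 2.00 to 5.52%) held the CTCF core, against 2.58% of all lncRNA promoters in the table. For protein-coding genes, whose promoters fall here only where RefSeq has a start inside the gene, 6 of 107 (5.61%, 2.60 to 11.7%) held it, against 2.37%. The first interval includes the share in the whole table and the second does not, though it rests on 6 promoters, and some of the 107 belong to the same gene and overlap. The ETS core was found in 3 of the 420 lncRNA promoters (0.714%, against 1.58%) and in 3 of the 107 protein-coding ones (2.80%, against 5.20%). A match is a description of letters and not a bound site.

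The third set is a family of miRNAs. The let-7 miRNAs, which restrain growth and stem cell genes, share the seed GAGGUAG (bases 2 to 8, in capitals), the stretch that pairs with target RNAs. Of 11 let-7 genes in the table, 8 lay at an anchor of these loops or wholly between anchors, and 6 did so for a loop found in both replicates. These 6 give the following mature 5p forms.
let-7a-5p: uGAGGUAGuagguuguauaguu
let-7b-5p: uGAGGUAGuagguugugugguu
let-7c-5p: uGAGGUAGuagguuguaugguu
let-7d-5p: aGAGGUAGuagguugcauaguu
let-7f-5p: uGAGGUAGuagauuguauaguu
let-7i-5p: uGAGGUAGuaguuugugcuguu

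The 6 genes lay in 3 places. Mirlet7c-2 and Mirlet7b (chr15:85706603-85707403) both lay in the right anchor, chr15:85700001-85709999, of a 90.0 kb loop, beside the promoter of the lncRNA Lncppara. Mirlet7d, Mirlet7f-1 and Mirlet7a-1 lay inside a 110 kb loop on chromosome 13 that also enclosed Ptpdc1, the gene of a protein phosphatase. In replicate 1 the left anchor of its partner, chr13:48530001-48539999, held these 3 miRNA genes. A 40.0 kb loop over the same 3 miRNA genes was listed in replicate 2 alone. Mirlet7i lay inside a 200 kb loop whose anchors were in the bodies of Ppm1h, a phosphatase gene, and Mon2, a gene of endosome traffic. The let-7 genes Mirlet7a-2, Mirlet7c-1 and Mirlet7g were neither at an anchor nor enclosed. Beyond let-7, Mir21a was inside a 90.0 kb loop from Tubd1 to Vmp1, an autophagy gene, with n = 36 in replicate 2 on 5 kb anchors. Its replicate 1 partner had n = 59 on 25 kb anchors, and n, a number that comes with each loop, is larger on wider anchors. In all, 28 of 1228 miRNA genes ended in a member anchor and 136 lay between anchors, 5 and 45 of them for loops found in both replicates.

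The median span of the 2300 loops was 140 kb, with quartiles of 80 and 230 kb and extremes of 35.0 and 490 kb. By anchor width, 620 loops had 5 kb anchors, 1108 had 10 kb anchors and 572 had 25 kb anchors. Their median spans were 95, 130 and 200 kb. Narrow anchors are less likely to hold a gene end, and loops without one made up 63.3% of all loops under 500 kb at 5 kb, 49.8% at 10 kb and 29.9% at 25 kb. Each loop carries a whole number tagged n, which the files do not define, with medians of 19, 30.0 and 65.5 at the 3 widths. It is used here only to rank loops of 1 width and to set replicates side by side. Another list that the authors deposited, called here the high setting, held 1728 of the loops (75.1%). These were all the loops on 5 and 10 kb anchors, and the 572 others all had 25 kb anchors. The 75.1% is thus the share of those 2 widths and does not show a stricter call.

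**Figure D1:**
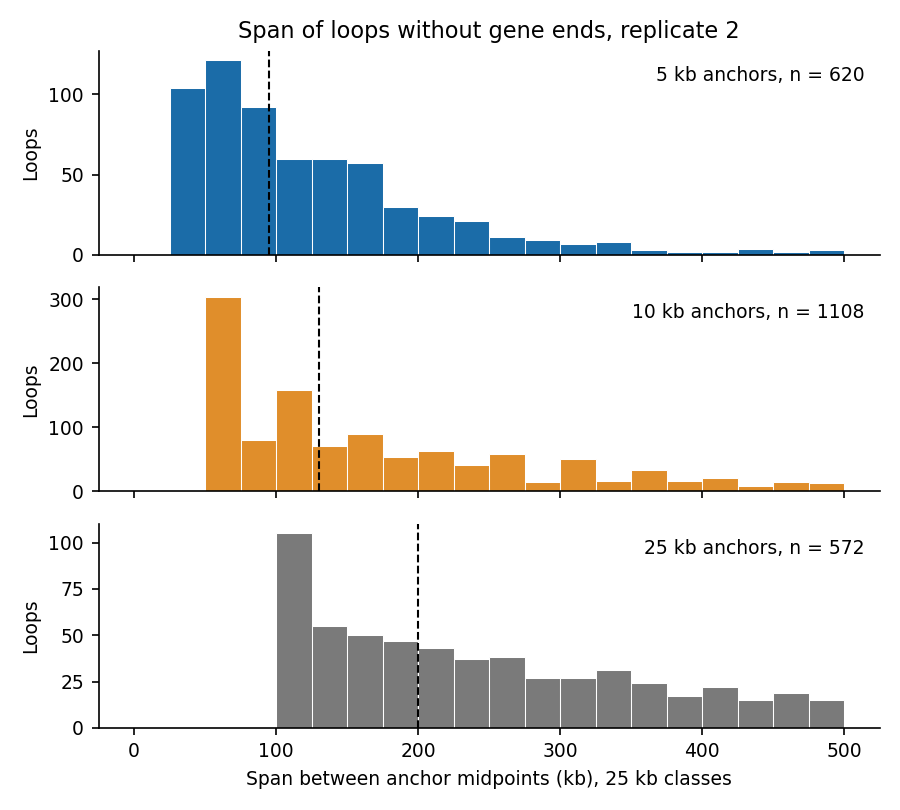
Number of loops without gene ends in replicate 2 by span between anchor midpoints, in classes of 25 kb, for 5, 10 and 25 kb anchors. Dashed lines mark the medians of 95, 130 and 200 kb, which lie further right for wider anchors.

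Near the limits of the rule, 8 loops spanned 490 kb, the longest span inside, and 19 spanned 500 kb, the shortest outside. The nearest gene end outside an anchor was 8 bp away. Of 4419 distinct anchors, 273 had a gene end within 1 kb, 1068 within 5 kb and 1708 within 10 kb, with a median distance of 15.5 kb. In the loops with a gene end at 1 anchor, that end lay within 1 kb of the anchor's edge in 391 of 2016.

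Of the 2300 loops, 546 were found in replicate 1, meaning that both midpoints lay within 20 kb of those of a replicate 1 loop. That is 23.7% (22.0 to 25.5%), against 18.9% of all 5120 loops under 500 kb. The share fell with anchor width, from 38.1% at 5 kb (34.3 to 41.9%) to 23.7% at 10 kb and 8.22% at 25 kb, against 35.3, 21.4 and 7.52% of all loops under 500 kb of those widths. The 20 kb rule bears on this fall. Anchors of 25 kb lie in steps of 25 kb, so such a loop could match a 25 kb partner only on identical anchors. The part of the rule in the fall was not tested. Within a width, loops with a gene end at 1 anchor were found in 31.6, 20.3 and 6.60% of cases, and loops with gene ends at both anchors in 25, 15.1 and 8.27%. The intervals of loops with none and with 1 gene end overlapped at every width. Loops are not replicates of a condition, so no p-value is given for these differences.

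Recurrence also varied with span. It was 10.3% for the 702 loops under 100 kb, 32.4% for the 836 from 100 to under 200 kb, 31.0% for the 387 from 200 to under 300 kb and 22.1% for the 375 above that. In replicate 2 no loop under 500 kb on 25 kb anchors spanned less than 100 kb, and most replicate 1 partners were on 25 kb anchors. Short loops may thus have had fewer possible partners, which was not tested. In the other direction, 390 of the 1276 loops of replicate 1 met the same rule, and 319 of these (81.8%, 77.7 to 85.3%) had a partner in the replicate 2 list, of which 300 were loops without gene ends there too. Replicate 1 called its partners on wider anchors: of the 236 loops found on 5 kb anchors, 156 had a partner on 25 kb anchors. Of the 546 partners 304 also held no gene end, 187 held one at 1 anchor and 55 at both. At the 19 pairs of identical 10 kb anchors n had medians of 16 in replicate 1 and 38.0 in replicate 2, and at the 45 identical 25 kb pairs 29.0 and 83.0. It was higher in replicate 2 in all of them. Elsewhere the partner often has wider anchors, so the n of the replicates printed for a named loop stand side by side and are not compared.

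Most of these loops touched a gene body without touching its ends. At least 1 anchor lay wholly inside a protein-coding gene in 1692 loops (73.6%). Each loop has 2 anchors, and of the 4419 distinct anchors 2257 (51.1%) lay inside a gene. No share for other loops or for the whole genome is set beside these values, so they are not shown to be particular to these loops. Both anchors were intergenic, here meaning outside protein-coding genes, in 608 loops (26.4%). In 1052 (45.7%) 1 anchor was in a gene and 1 was intergenic, in 379 (16.5%) the anchors were in 2 different genes, and in 261 (11.3%) both were inside the same gene. The table gives gene extents only, so exons and introns were not told apart. Loops within a gene were shorter, with a median of 90.0 kb against 135, 142 and 160 kb for the other placements in the order above.

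**Figure D2:**
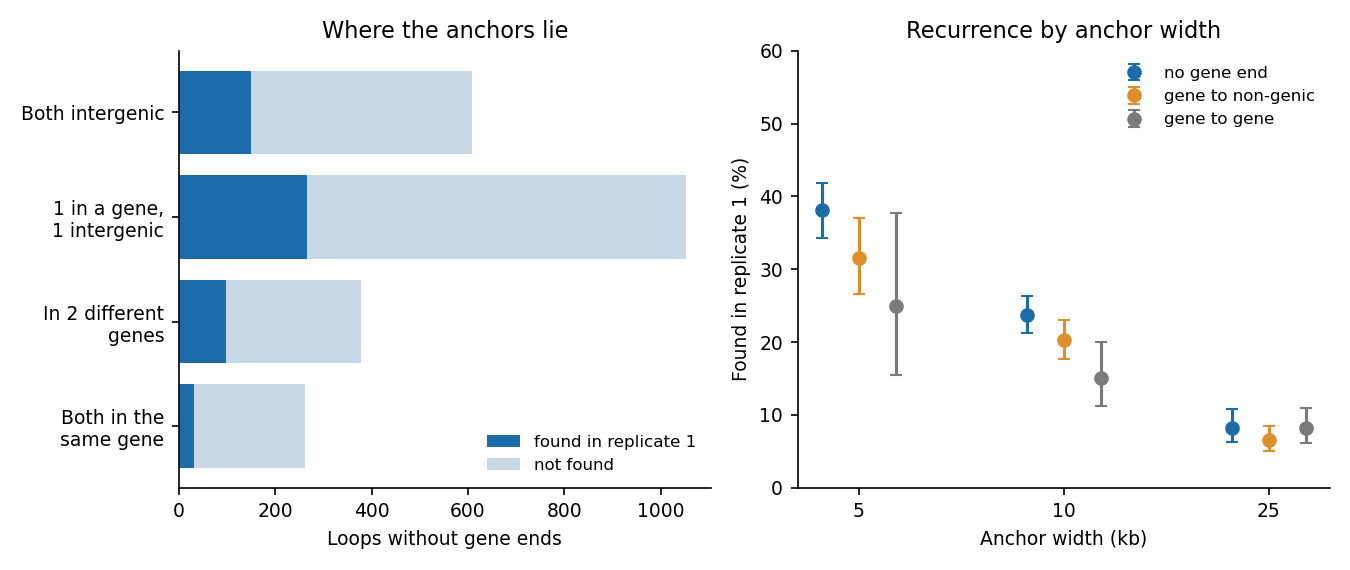
Left, number of loops without gene ends by where their anchors lie, split by whether the loop was found in replicate 1. Right, percent found in replicate 1 by anchor width for 3 classes of loops under 500 kb, with 95% Wilson intervals as bars. Loops within a gene were found in 12.3% of cases and each other placement in 24.7 to 25.6%, and all 3 classes were lowest at 25 kb. There the rule for partners, midpoints within 20 kb, allows a 25 kb partner on identical anchors only.

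Loops within a gene were found in replicate 1 in 32 of 261 cases (12.3%, 8.82 to 16.8%), below the 24.7, 25.4 and 25.6% of the other placements. Span moved with this. Under 100 kb the share was 4.44% within genes (6 of 135) and 12% between intergenic anchors, from 100 to under 200 kb it was 16.1 and 31.3%, and from 200 to under 500 kb it was 30.8 and 28.1%. In the last class the interval within genes, over 39 loops, ran from 18.6 to 46.4%. The part of span in the difference was not tested further.

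The genes that held anchors were long, which the rule itself favours. Only a gene longer than the anchor can hold it wholly inside, and a longer gene offers more positions. Member anchors lay inside 1675 of 21521 protein-coding genes (7.78%), whose median length was 88.0 kb, against 17.4 kb over all genes and 17.8 kb for genes enclosed by these loops. Of the 2425 genes of 100 kb or more, 748 (30.8%) held an anchor. Anchors inside a single gene of that length were spread over it with more toward its end: when each gene was divided into 3 equal parts in the direction of transcription, 28.2% of 983 anchors lay in the first part (25.5 to 31.1%), 32.5% in the middle and 39.4% in the last (36.4 to 42.5%). In 209 genes a whole loop lay inside the gene, and in 27 of these such a loop was found in both replicates.

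Pde4d, which encodes a phosphodiesterase that breaks down cyclic AMP, held the most. Its 1302 kb body (chr13:108654177-109955969) contained 16 distinct anchors of 9 loops, and 7 of these loops lay wholly within it. Of the 7, a 300 kb loop had n = 21 in replicate 2 and 26 in replicate 1, a 100 kb loop had 135 and 51, and a 120 kb loop had 26 and 56. The other 4, of 60 to 200 kb, were listed in replicate 2 alone. All the other loops within Pde4d, found in replicate 1 or not, lay to the right of the 200 kb loop, as the plot of the Pde4d loops shows. Dock10, an exchange factor for small GTPases, held 8 anchors and 3 whole loops, none of which was found in replicate 1. Rabgap1l, the gene of a GTPase-activating protein for Rab proteins, held 7 anchors and 4 whole loops, and 2 were found. Arhgap26 and Arhgap6, both genes of GTPase-activating proteins, held 7 anchors and 3 whole loops each, of which 1 and 0 were found.

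Among loops within a gene that were found in both replicates, the longest was 365 kb inside Lrmda (chr14:22565001-22569999 to chr14:22930001-22934999), a gene of melanocyte differentiation, with n = 29 in replicate 2 and 22 in replicate 1. Next came 325 kb in Palld, the gene of the actin-binding protein palladin, and 320 kb in Pde10a, another phosphodiesterase gene. Rabgap1l and Dnm3, a dynamin gene, each held one of 310 kb. The Rabgap1l loop also enclosed Gpr52, a receptor gene that lies within the larger gene. The rest of the 10 longest lay in Pde4d and in Ctnnd2, a catenin gene (300 kb each), in Mctp1 (270 kb) and in Rgl1 and Acoxl (220 kb each).

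Loops that ran between the bodies of 2 different genes passed over other genes or over none. The longest 2 of those found in both replicates, each 490 kb, ran from Map9 to Rbm46 over Npy2r, the gene of a neuropeptide Y receptor, and from Rims2 to Dpys over Dcstamp, which encodes a protein of osteoclast fusion. A 450 kb loop from Slc22a23 to Pxdc1 enclosed no protein-coding gene. A 430 kb loop from Ppil4 to Ust enclosed Zc3h12d and Tab2, an adaptor gene of the TAK1 kinase pathway. A 425 kb loop joined Ksr2 and Nos1.

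Of the 2300 loops, 1229 (53.4%) enclosed no protein-coding gene between their anchors and 1071 (46.6%, 44.5 to 48.6%) enclosed at least 1, against 49.7% of all loops under 500 kb. Exactly 1 gene was enclosed by 642 loops (27.9%), 2 by 234, 3 by 98 and 4 or more by 97. The share enclosing a gene rose with span, from 28.3% under 100 kb to 72.0% at 300 kb and over. For loops with a gene end at 1 anchor those shares were 33.9 and 73.0%, and for loops with gene ends at both 40.8 and 88.5%. A single enclosed gene was more frequent in the longer loops without gene ends: at 300 kb and over it was 34.9% (30.3 to 39.9%), against 21.9% (17.8 to 26.7%) with a gene end at 1 anchor and 13.8% (8.07 to 22.6%) with both. These intervals do not overlap that of the loops without gene ends, and the part of gene density in this was not tested.

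**Figure D3:**
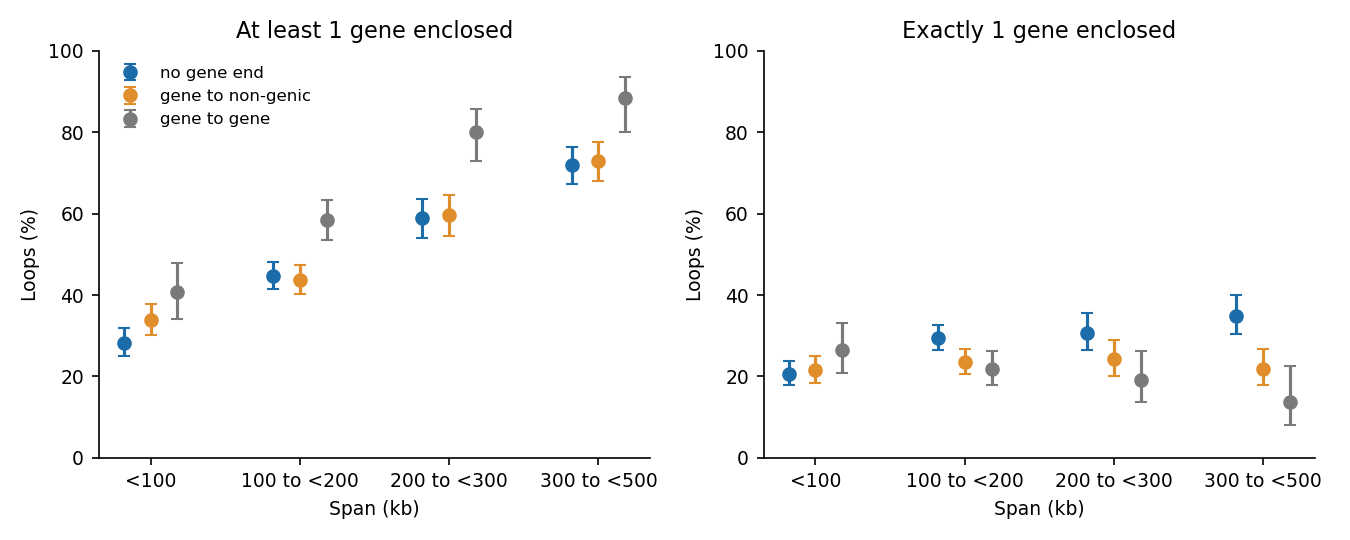
Percent of loops under 500 kb that enclose at least 1 protein-coding gene (left) and exactly 1 (right) by span, for loops with no gene end, with 1 at an anchor and with both, with 95% Wilson intervals as bars. At 300 kb and over 34.9% of loops without gene ends enclosed exactly 1 gene, against 21.9 and 13.8% of the other classes.

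In all, 1682 protein-coding genes (7.82% of 21521) were enclosed by at least 1 of these loops, 595 of them alone in a loop. For loops found in both replicates the numbers were 482 genes (2.24%) and 199, by the anchors of replicate 2. The replicate 1 partner was not required to enclose the same gene. For some list genes, such as Gp1ba, Cd2, Procr and Cebpb, an anchor of the partner held the gene. For others, such as Ikzf2, Il18, Gbp2 and Gbp5, it held an end of the gene. The shortest of the found loops with a single gene spanned 50 kb around S100a10, the partner protein of annexin A2, and 50 kb around Gucy2e, a retinal guanylate cyclase gene. Others of 55.0 to 70.0 kb enclosed Perp, a p53 target of cell junctions, Itln1, an intelectin gene, Neurod4, a neuronal transcription factor gene, and Aqp3, a water channel gene. Those of 70.0 kb enclosed Ctla4, an inhibitory receptor of T cells, Plau, the urokinase plasminogen activator, Upk3a, a uroplakin of the bladder lining, and Anxa1, an annexin that dampens inflammation. The Plau loop had n = 38 in replicate 2 on 5 kb anchors and 27 in replicate 1 on 10 kb anchors.

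Loops of high n that were found in both replicates enclosed single genes in several places. Over all members n reached 42 on 5 kb anchors, 67 on 10 kb and 157 on 25 kb, and on 5 and 10 kb anchors the loops with the highest n were listed in replicate 2 alone. Among the found loops on 5 kb anchors a 160 kb loop with n = 38 enclosed Ptger2, a prostaglandin E2 receptor gene, and a 55.0 kb loop with n = 38 ran out of Acer3, a ceramidase gene. Among those on 10 kb anchors the highest n was 60, for a 120 kb loop around B3gnt5, a glycolipid glycosyltransferase gene, then 59 for a 50 kb loop out of Aqp9, a channel gene for water and glycerol, and 57 for a 160 kb loop from Ankdd1b to Cert1 over Polk, a DNA repair polymerase gene. Among those on 25 kb anchors n was 157 for a 175 kb loop ending inside Arhgap18, 149 for a 100 kb loop from Usp8 to Trpm7 and 143 for an intergenic 100 kb loop on chromosome 14.

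At the other extreme, few loops enclosed many genes. The highest numbers stood in replicate 2 alone, with 18 genes in a 475 kb loop over the trace amine receptor (Taar) cluster on chromosome 10 and 17 in a 450 kb loop over the keratin genes around Krt5. Among loops found in both replicates, a 125 kb loop on chromosome 11 enclosed 9 genes including Gp1ba and the actin regulator gene Pfn1, between the anchors whose lncRNA start Gm12320 is shown above. A 380 kb loop on chromosome 9 enclosed 8 matrix metalloproteinase genes, among them Mmp8, the neutrophil collagenase. Found loops over 7 genes enclosed a bitter taste receptor cluster with Clec5a, a myeloid lectin receptor gene, and a cluster of olfactory receptor genes. A found loop of 140 kb enclosed 6 genes of the Ugt1a region.

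The 10 gene lists used for position hold 392 entries, of which 390 matched the table (Mx1 and Mx2 of the interferon list did not). They were written with earlier results of these data in view, and some genes stand in 2 lists. Against the 7.82% of all protein-coding genes enclosed, the shares ran from 2.86% of the erythroid and megakaryocytic list to 33.3% of the TNF and NF-kB list. The list of non-haematopoietic genes stood at 25.6% (11 of 43), so a share above 7.82% was not limited to lists of blood genes. Nor were these shares tested. Beside the counts of list genes in found loops below stands 2.24% of all protein-coding genes. Beside those with an anchor in the gene body stands 7.78%.

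**Figure D4:**
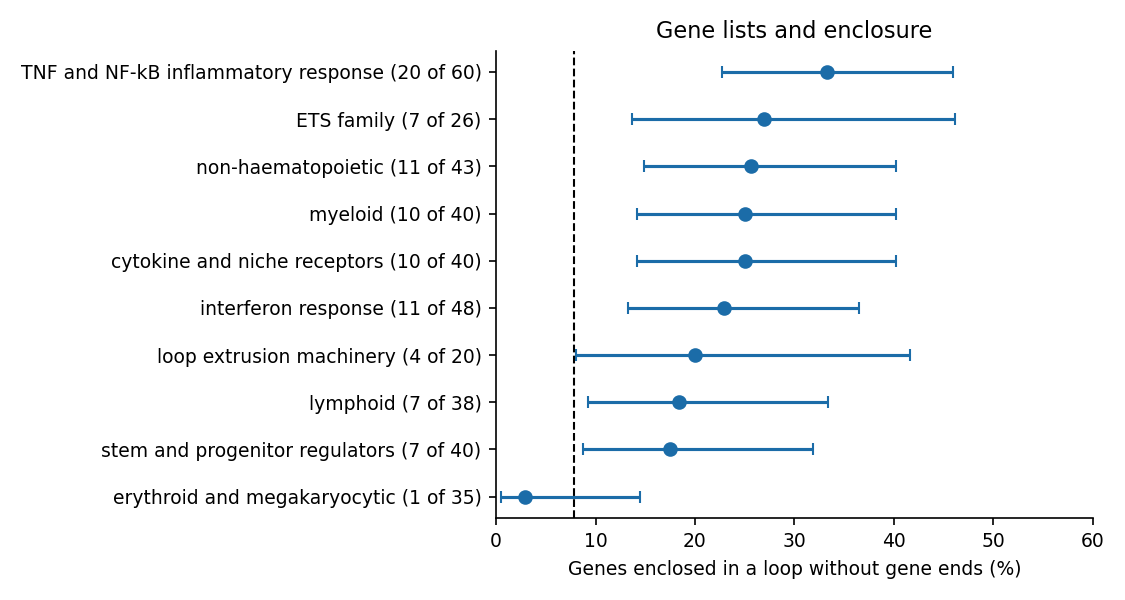
Percent of each list's genes enclosed in a loop without gene ends, with 95% Wilson intervals as bars and counts beside the names; the dashed line is the 7.82% of all protein-coding genes. The erythroid and megakaryocytic list lies below the line with an interval that includes it, and the other 9 lists lie above it.

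Etv6 itself (chr6:134035700-134270158) lay inside a pair of these loops and held an anchor of another. The loop found in both replicates spanned 430 kb, from chr6:133960001-133964999 to chr6:134390001-134394999, with n = 13 in replicate 2. Its replicate 1 partner spanned 425 kb on 25 kb anchors with n = 46. The anchors also matched the ends of a called contact domain (chr6:133950001-134395000), a stretch whose sequences contact each other more than their surroundings. A second loop over the whole gene, of 480 kb with n = 26, and a 275 kb loop that ended inside it with n = 71 were listed in replicate 2 alone.

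**Figure D5:**
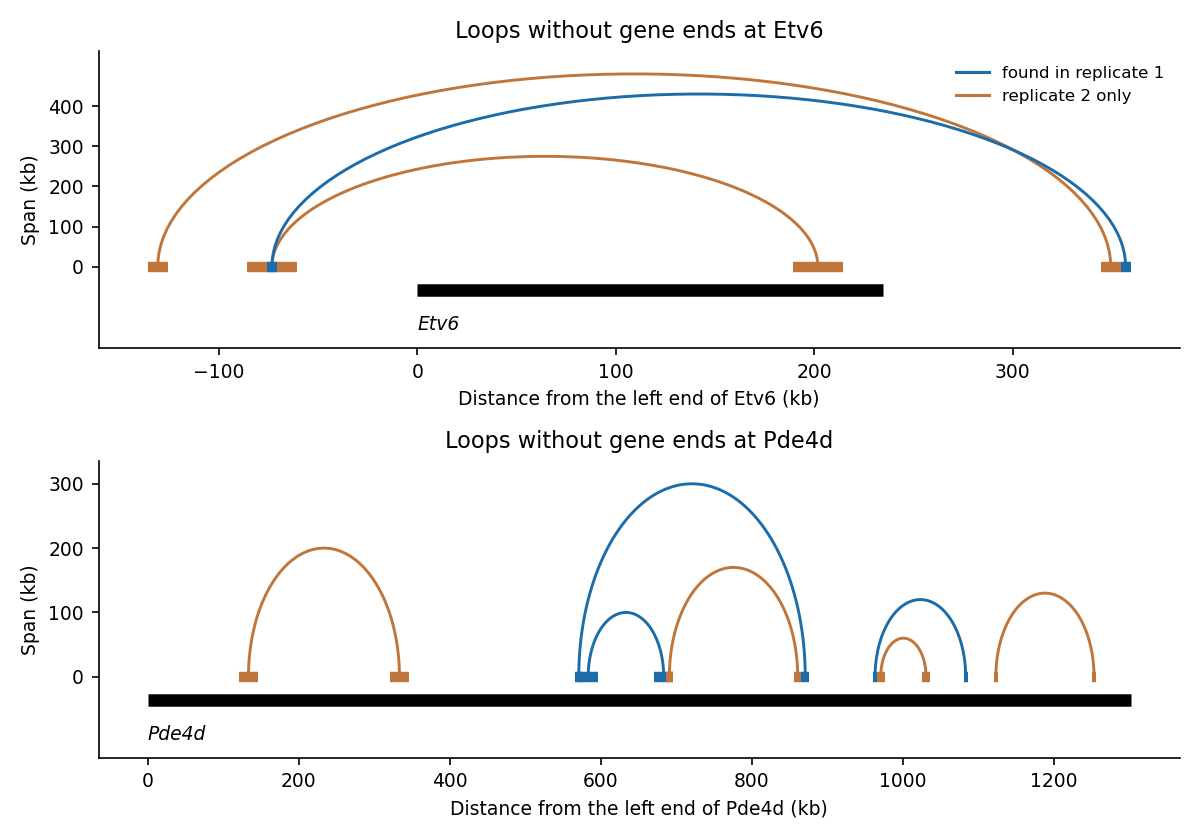
Loops without gene ends over or in Etv6 (top) and within Pde4d (bottom) as arcs whose height is the span in kb, with anchors as thick bars and the gene as a black bar; the horizontal axis is the distance in kb from the left end of the gene. The 430 kb loop around Etv6 and 3 of the 7 loops within Pde4d were found in replicate 1.

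The ETS family list, the transcription factors related to ETV6, had 7 of 26 genes enclosed (26.9%, 13.7 to 46.1%), at 7 separate places and 4 of them alone in a loop. Besides Etv6, only Elf2 was enclosed by a loop found in both replicates, a 120 kb loop from inside Noct with n = 32 in replicate 2 and 36 in replicate 1. Elk4 lay in a 100 kb loop, and Ets1, Ets2, Elk3 and Etv5 in loops of 240 to 375 kb, all in replicate 2 alone.

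Among stem and progenitor regulators 7 of 40 were enclosed (17.5%, 8.75 to 31.9%), and 4 in found loops. Myb, a factor of progenitor growth, was alone in a 200 kb loop that began inside Ahi1, with n = 32 in replicate 2 and 43 in replicate 1. Ikzf1, the gene of the lymphoid factor Ikaros, lay in a 340 kb loop with 2 other genes. Its relative Ikzf2 was alone in a 450 kb loop with n = 27 and 22.

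Of the myeloid list 10 of 40 were enclosed (25%, 14.2 to 40.2%), 6 of them in found loops, beside 2.24% of all protein-coding genes. None held an anchor in its body, beside 7.78% of all protein-coding genes. Some could not: Cebpa, Cebpb and Cebpd, of 2.64, 1.52 and 2.26 kb, are shorter than a 5 kb anchor. Cebpa, Cebpb and Cebpd, which encode the C/EBP factors of granulocyte and macrophage genes, were each inside a found loop. The Cebpa loop spanned 150 kb from inside Pepd and enclosed 3 genes, with n = 21 in replicate 2 and 26 in replicate 1. Cebpb was alone in a 210 kb loop with n = 18 and 30, its left anchor in replicate 2 ending under 5 kb from the gene. The left anchor of the replicate 1 partner was wider and held Cebpb itself. Cebpd lay in a 225 kb loop. Irf8, a factor of monocyte and dendritic cell fate, was alone in a 110 kb loop with n = 29 and 38, and Ms4a3, a gene of granulocyte precursors, lay with 5 others in a 155 kb loop. Lyz2, the lysozyme gene, Fcgr3, an antibody receptor gene, and the neighbours S100a8 and S100a9 of the calprotectin protein lay in 60 kb loops of replicate 2 alone.

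The interferon list had 11 of 48 genes enclosed (22.9%, 13.3 to 36.5%) at 7 separate places. Irf1, an activator of interferon genes, was alone in a 100 kb loop with n = 40 in replicate 2 and 36 in replicate 1. Gbp2, Gbp3, Gbp5 and Gbp7, genes of guanylate-binding proteins of cell defence, shared a single 160 kb loop with n = 38 and 45. Ifit2 and Ifit3 shared a 90.0 kb loop of replicate 2 alone.

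The TNF and NF-kB list had 20 of 60 genes enclosed (33.3%, 22.7 to 45.9%) at 18 places, 10 of them alone in a loop. For loops found in both replicates the count was 3, beside 2.24% of all protein-coding genes. These were Il18, an inflammatory cytokine gene, in a 55.0 kb loop, Dusp1, a phosphatase gene that ends MAP kinase signals, alone in a 180 kb loop, and Nfkbiz, the gene of a nuclear I-kappa-B protein, alone in a 350 kb loop with n = 35 in replicate 2 and 50 in replicate 1. The other 17, among them Tnfaip3, Nfkbia, Rel, Il1b, Ccl2, Ccl5, Ptgs2, Tlr2 and Tlr4, lay in loops of replicate 2 alone. Ccl2, a chemokine gene, was in a 35.0 kb loop and Tlr2, a receptor gene for bacterial lipoproteins, in one of 325 kb.

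Of cytokine and niche receptor genes 10 of 40 were enclosed (25%), 5 in found loops. Procr, a marker gene of blood stem cells, lay with Edem2 in a 90.0 kb loop with n = 51 in replicate 2 and 44 in replicate 1. The right anchor of the replicate 1 partner was wider and held Procr itself, so Procr was enclosed in replicate 2 only. Il10ra, Ifngr1 and Tgfbr2, receptors for interleukin 10, interferon gamma and TGF-beta, lay in loops of 165, 200 and 325 kb. Tgfbr2 was alone in its loop, whose right anchor (chr9:116375001-116399999) carried 3 of these loops. Cxcr4, the receptor that keeps progenitors in the marrow, was alone in a 450 kb loop from inside Dars with n = 17 and 34.

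The erythroid and megakaryocytic list had 1 of 35 genes enclosed (0.506 to 14.5%), Gp1ba, which lay in the left anchor of the replicate 1 partner. Other genes of the list held an anchor in their body, among them Tfrc, the transferrin receptor gene, Itgb3, a platelet integrin gene, and Vwf, the gene of von Willebrand factor. The lymphoid list had 7 of 38 enclosed (18.4%). Notch1, a receptor of T cell fate, was alone in a 110 kb loop and Cd2, a T cell adhesion gene, lay with 3 others in a 320 kb loop, both found in replicate 1. The right anchor of the replicate 1 partner of the 320 kb loop held Cd2. Rag1 and Rag2, the recombinase genes, shared a 180 kb loop of replicate 2 alone. Of non-haematopoietic genes Krt8 and Krt18, keratins of simple epithelia, shared an 80 kb found loop. Pecam1, an endothelial adhesion gene, was alone in a 100 kb one and Neurod1, a factor of neurons and islet cells, in one of 125 kb. Of the 20 genes of loop machinery, 4 were enclosed (20%), and 2 in found loops: Rad21, a cohesin subunit gene, in a 250 kb loop, and Wapl, the gene of the cohesin release factor, alone in one of 160 kb.

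Anchors without protein-coding gene ends were not always free of other genes. In 804 loops (35.0%, 33.0 to 36.9%) an anchor held an end of another annotated gene, and in 125 both did. These ends belonged to 682 lncRNA genes (5.41% of those in the table), 214 pseudogenes, 24 tRNA genes and smaller classes. The share rose with anchor width, from 21.0% at 5 kb to 34.4% at 10 kb and 51.2% at 25 kb. In 322 loops (14.0%) neither anchor lay inside a protein-coding gene or held an end of any annotated gene. Of these, 107 also enclosed no protein-coding gene. Anchors lying wholly inside a gene of another kind, such as a lncRNA gene, were not told apart. A 25 kb right anchor of a 100 kb loop on chromosome 14 held 19 joining segments of the T cell receptor alpha locus, with n = 85, and a 400 kb loop on chromosome 12 ended at 3 variable segments of the immunoglobulin heavy chain. Neither was found in replicate 1.

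Some anchors held starts inside protein-coding genes that the outer gene ends miss. RefSeq promoters of 88 protein-coding genes lay in member anchors, at 94 loops (4.09%), and for 11 of these genes the loop was found in both replicates. Promoters of chromosome 18 were not analysed, so its 85 loops could not be counted though the share is over all 2300. The 11 were Stat4, R3hdm1, Pfkfb3, Shld1, Cep70, Ppp2r3a, Pmp22, Map2k6, Cpsf4l, Cnnm2 and Gucy2g. For Stat4, a signal transducer of interleukin 12, the start lay in the left anchor of a 90.0 kb loop with n = 21 in replicate 2 and 18 in replicate 1. For Map2k6, a kinase gene of the p38 pathway, it lay in the right anchor of a 125 kb loop with n = 117 and 47. Pfkfb3, a regulator of glycolysis, had its start in the right anchor of a 170 kb loop with n = 38 and 37.

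The anchors rarely met more than 1 of these loops. Of 4419 distinct anchors 4247 (96.1%) belonged to a single loop, 163 to 2 and 9 to 3, and 153 (3.46%) were also an anchor of a loop to a gene end. Of the anchors with 3 loops, one on chromosome 3 (chr3:87240001-87249999) bounded loops of 50, 80 and 250 kb over Cd5l, Fcrl1 and Fcrls, genes of macrophage and B cell surface or secreted proteins. One on chromosome 6 (chr6:122890001-122899999) bounded loops of 110, 290 and 360 kb over 7 C-type lectin genes of the Clec4 group, and 2 of these loops were found in replicate 1. Another (chr7:75550001-75559999) lay inside Akap13, the gene of a kinase-anchoring protein, with loops of 50, 150 and 420 kb. Of the rest, chr2:11330001-11339999 and chr6:50930001-50939999 held lncRNA ends, and each had 1 loop found in replicate 1. Of the 2300 loops 467 (20.3%) lay wholly within another of them.

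Few loops coincided with called contact domains. Both midpoints lay within 20 kb of the ends of a domain in 68 loops (2.96%, 2.34 to 3.73%), against 2.21% of all loops under 500 kb, 2.03% of those with a gene end at 1 anchor and 0.498% (0.194 to 1.27%) of those with both. On 5, 10 and 25 kb anchors the shares were 4.19, 2.89 and 1.75% for loops without gene ends. With a gene end at 1 anchor they were 1.32, 3.24 and 1.06%, and with both 0, 0.397 and 0.605%. At 10 kb the loops with 1 gene end thus stood higher. The part of span in these differences was not tested. The 68 loops matched 66 of the 339 domains of replicate 2, and loops under 500 kb of all kinds matched 110. Of the 68, 33 were found in replicate 1. The loops around Etv6 and Cxcr4, the 490 kb loop over Dcstamp, the 475 kb loop from inside Map3k1, a gene of a kinase upstream of the MAP kinases, and the 430 kb loops over Tab2 and over Irf2bp2, a corepressor gene, were among them.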

How the data were processed

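Hi-C of HPC5 cells gave, for each of 2 replicates, loop lists and a domain list that the authors deposited in a form of their own, with the unit not defined: a loop has 2 anchors, a whole number n and a value tagged qBL (not used). HiC-Pro 2.11.1 and mm10 are named per the submitters' processing notes. The loop caller is not given in the sources used here, and the deposited lists are per replicate, not pooled. The medium list of replicate 2 was used, and replicate 1 only to look for partners within 20 kb. The gene table was that of RefSeq for GRCm38.p6, with 21521 protein-coding genes once 110 on scaffolds were left out, and strands came from its promoters. Promoters of chromosome 18 were not analysed here. A gene is enclosed when it lies wholly between the anchors. For loops found in both replicates these are the anchors of replicate 2. Coordinates are as deposited, with domain starts counted from 1. Shares carry 95% Wilson intervals, which cover counting error only and treat neighbouring loops as independent.

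The members and lists were chosen with earlier results of these data known. Named loops are, among those found in replicate 1, the 3 of highest n at each width, the 5 longest and 5 shortest, the 10 shortest with 1 gene, the 5 with most genes, the 10 longest in 1 gene, the 5 longest between 2 genes, the 5 genes and 5 anchors with most anchors or loops, up to 4 genes per list and Etv6. Names outside this rule (let-7 and other miRNAs, receptor segments, internal starts, domain loops, extremes over all members and further list genes) and the promoter motif search were chosen after values were seen. A gene of the lists is not reported here. The planned search for CTCF motifs across anchors was not run. Alternatives were the high setting, gene ends within 5 or 10 kb or of all annotated genes, other span limits, single anchor widths, and other rules for partners, domains and enclosure. Scripts used Python 3.11.15 with pandas 2.3.3 and were tested on simulated data.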

Additional observations from a re-analysis of the deposited data

Results flagged for a closer look

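Of the 390 replicate 1 loops under 500 kb without gene ends, 71 (18.2%) had no partner in the replicate 2 list, although that list is the longer one. They were set apart because they are a signal in a list that the comparisons above use only to look for partners. Of the 71, 65 had 25 kb anchors and 6 had 10 kb anchors. The widths of all 390 are not given here, so these counts have no share to stand beside. Under the 20 kb rule a loop on 25 kb anchors can match a 25 kb partner only on identical anchors. The median span of the 71 was 150 kb, against 170 kb for all 390.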

How the results depend on the processing

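Values are set against the main ones: 2300 loops, 23.7% found in replicate 1, 73.6% with an anchor in a gene, 11.3% within 1 gene, 46.6% enclosing a gene, 7.82% of genes enclosed, a median span of 140 kb, 2.96% matching a domain and 35.0% with another gene's end. With the high setting, which here equals 5 and 10 kb anchors only, 28.9% were found, 5.99% of genes were enclosed, the span was 120 kb and 29.6% had another gene's end. With 25 kb anchors only, 572 loops gave 8.22% found, 43.2% enclosing a gene, 2.27% of genes, 200 kb, 1.75% matching a domain and 51.2% with another gene's end. Excluding gene ends within 5 kb left 1362 loops, with 14.7% within 1 gene, 40.1% enclosing a gene, 3.89% of genes and 150 kb. Within 10 kb it left 919 loops, with 16.2%, 34.4%, 2.17% and 160 kb, and 2.18% matching a domain. Excluding ends of all annotated genes left 1496 loops, with 78.5% in a gene, 14.1% within 1 gene, 43.6% enclosing a gene and 4.87% of genes. A span under 250 kb gave 13.5% within 1 gene, 39.6% enclosing a gene, 4.79% of genes, 100 kb and 0.679% matching a domain, and no limit on span gave 71.5% in a gene, 51.1% enclosing a gene, 10.2% of genes and 150 kb. Partners within 10 kb were found for 18%, within 50 kb for 30.0%, by overlap of both anchors for 19.8% and in the high setting of replicate 1 for 4.78%. Domain ends within 10 and 50 kb gave 1.65 and 5.00%. Counting a gene by its midpoint gave 72.5% enclosing a gene and 11.3% of genes. The causes of these moves were not tested beyond what each setting takes away.

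By the rule applied to either replicate alone, the lowest and highest values were 390 and 2300 loops, 73.6 and 74.4% in a gene, 10.3 and 11.3% within 1 gene, 46.6 and 48.7% enclosing a gene, 1.33 and 7.82% of genes, 140 and 170 kb, 0 and 2.96% matching a domain (each replicate against its own domains, of which replicate 1 listed 3), and 35.0 and 55.4% with another gene's end. From replicate 1, 81.8% were found in the other list. No paired analysis was possible because the samples form 1 group. Depth is unknown, so a loop missing from a list is not shown to be absent from the cells, and with 2 samples no share carries a spread between replicates.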
